A study of Mus musculus with 10 samples.

Results

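Follistatin was given to 2 kinds of mouse liver, and the genes described here are those whose response to it depended on which kind of liver received it. For each gene the log2 level with follistatin minus the level with the control vector was taken in livers labelled LTKO and, separately, in livers of mice on a high-fat diet (HFD). The second response was then subtracted from the first. A positive difference means a response that was higher in LTKO livers, and a negative one a response that was lower there. The contrast uses 10 of the 10 arrays in the series. By limma, 48 of the 22180 named genes differed at an adjusted p under 0.05 (0.216% of those tested), 26 with a higher response in LTKO livers (0.117%) and 22 with a lower one (0.0992%).

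Livers of fasted male mice were profiled, with 1 Affymetrix array per sample and values on the log2 RMA scale, about 2 weeks after infection with an adeno-associated virus whose TBG promoter drives its cargo in hepatocytes. Of the wild-type mice, kept on a high-fat diet, 3 carried the GFP control vector (HFD GFP) and 3 the vector for the follistatin isoform FST288 (HFD FST288). Of the LTKO mice, 2 carried GFP (LTKO GFP) and 2 carried FST288 (LTKO FST288). Virus, promoter, sex and fasting were shared by all groups. The labels give neither the meaning of LTKO nor the diet of these mice; as background, the abbreviation is used for livers lacking Irs1, Irs2 and Foxo1. Genotype and diet therefore cannot be told apart in the difference, and "background" below means both. No label states that the arrays of a group came from separate animals, and each p here rests on the spread between these arrays, which may be technical.

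Follistatin is a secreted glycoprotein that binds activins and some related ligands of the TGF-beta family and keeps them from their receptors. FST288 is the short isoform, which also attaches to heparan sulfate on cell surfaces. In the fed liver, insulin signals pass through the adaptors Irs1 and Irs2 to keep the transcription factor FoxO1 out of the nucleus, and the sterol and lipid programmes of the SREBP factors lie downstream of the same signals.

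The cargo and the targeted genes were read first. Fst (transcript cluster 17296344) was at 5.34, 5.25 and 5.22 in HFD GFP livers, 6.80, 5.78 and 6.45 in HFD FST288 livers, 5.39 and 5.30 in LTKO GFP livers and 6.85 and 6.74 in LTKO FST288 livers. The FST288 arrays lay above the GFP arrays in both backgrounds, and the 2 responses differed by 0.37 ± 0.30 (SE; limma, adjusted p = 0.662). Irs1, Irs2 and Foxo1 had differences of 0.14, -0.20 and -0.41, none of them called, and Foxo1 averaged 6.72 and 6.85 in the HFD groups against 5.04 and 4.75 in the LTKO groups. The 10 hepatocyte markers had medians between 11.61 and 12.22 on every array.

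Several arrays stood apart from their groups. Pancreatic acinar transcripts were high on a pair of HFD FST288 arrays: the median of 12 markers reached 8.43 in replicate 2 and 7.33 in replicate 3, and lay between 2.24 and 2.54 on the other 8 arrays. The median of 16 Kupffer cell and macrophage markers was 6.80 on LTKO FST288 replicate 2, against 4.86 to 5.56 on the other 9. For some of the results that these arrays touch, values with and without them are given below. The median of 73 small nucleolar RNA genes ran from 6.12 to 6.98 on the HFD arrays and from 7.41 to 7.89 on the LTKO arrays.

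The 48 genes fell into classes by the response in each background. In 26 the response was called in HFD livers alone, where 0.996% of all genes were called, and in 12 in LTKO livers alone, where 0.167% were. Csad was the single gene called in both, in the same direction, and 9 were called in neither background but differed between them. No gene of the 48 was called in opposite directions. By point estimate 23 had a lower level with FST288 in HFD livers and a higher one in LTKO livers, 17 the opposite, and 8 the same sign in both. Over all genes tested the signs were opposite in 53.8%. The arrays with FST288 and GFP did not overlap in HFD livers for 41 of the 48 (18.4% of all genes), and in LTKO livers for 41 (37.8% of all genes). Because these groups make up the contrast that chose the genes, the counts describe them and test nothing. The sizes of the 48 differences ran from 0.61 to 2.10 on the log2 scale, against a median size of 0.19 and a median SE of 0.21 over all genes. Without adjustment for the number of genes, 2795 (12.6%) passed p under 0.05, 1335 with a higher LTKO response (6.02%) and 1460 with a lower one (6.58%). Unadjusted counts in the gene lists below stand against these shares.

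**Figure D1:**
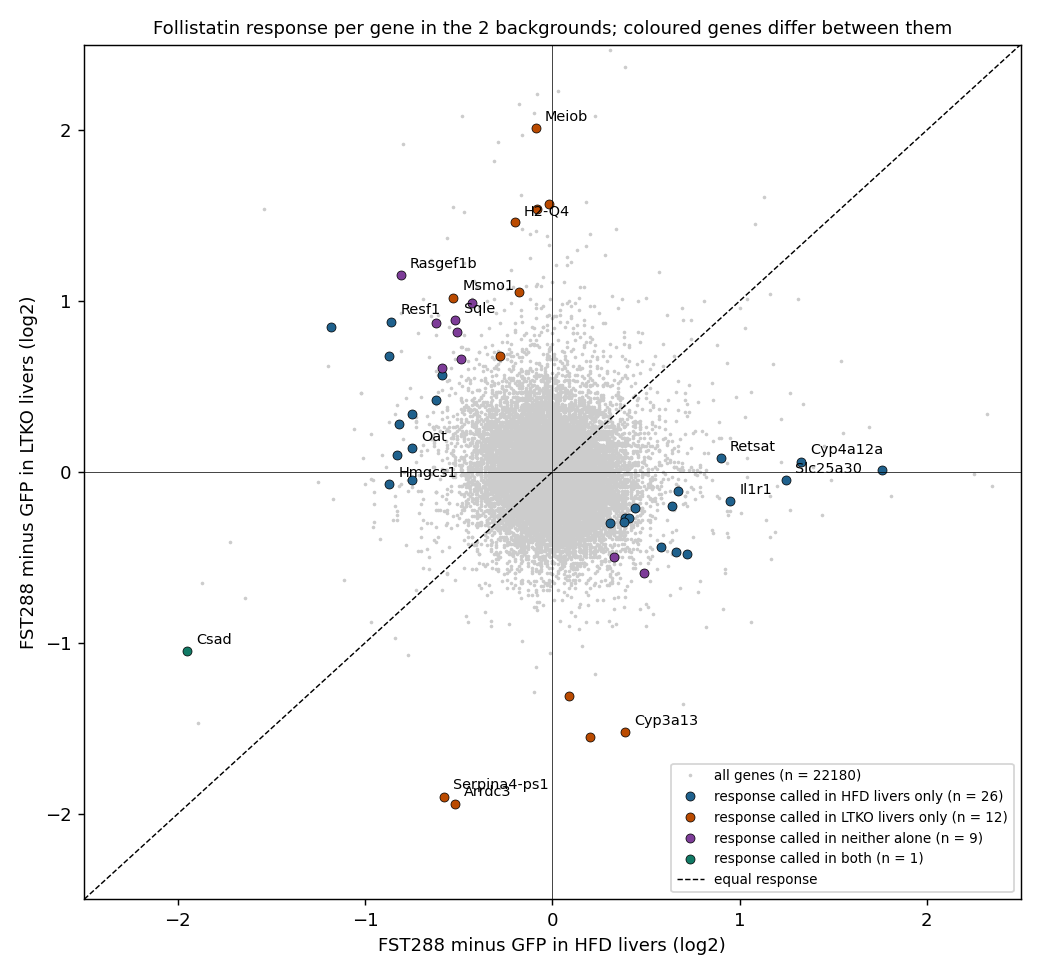
Each point is 1 gene, with the log2 response to FST288 in HFD livers on the x axis (3 against 3 arrays) and in LTKO livers on the y axis (2 against 2 arrays); the 48 coloured genes differ between the backgrounds by limma, and 14 genes lie outside the axes, which end at 2.5. Of the 48, 40 lie in the quadrants where the 2 responses have opposite signs, and Csad is below 0 on both axes.

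The genes still called whichever of the 10 arrays was left out are described first, 10 in all. They were Cyp3a13, Meiob, Resf1, Msmo1, Acaa1b, Rnf125, Retsat, Dmgdh, Oat and Cyp4a12a. Being called in every such fit was seen in the data before they were picked for this description, and Rnf125, Retsat and Dmgdh lie outside the rule for named genes. With the acinar marker median as a covariate, Cyp3a13 and Meiob were still called (limma, adjusted p = 0.00978 and 0.049). The rest of the 10 were not called in that fit, with adjusted p from 0.0562 to 0.0922. Without both HFD FST288 arrays with high acinar markers, Cyp3a13 alone was called.

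In 5 of these 10 genes the response in LTKO livers was the larger. The clearest was Cyp3a13 (17454193), a cytochrome P450 of the CYP3A family. Cyp3a13 was at 8.52, 8.46 and 8.49 in HFD GFP livers, 8.79, 8.99 and 8.85 in HFD FST288 livers, 8.05 and 8.45 in LTKO GFP livers and 6.74 and 6.72 in LTKO FST288 livers. The LTKO FST288 arrays lay below all others, while in HFD livers the FST288 arrays lay above the GFP arrays. It fell 2.86-fold in LTKO livers (limma, adjusted p = 0.000241), had a response of 0.39 ± 0.10 in HFD livers (adjusted p = 0.0974), and the responses differed by -1.91 ± 0.16 (adjusted p = 0.00034). Meiob (17334433) encodes a DNA-binding protein of meiotic recombination and was near the array median of named genes, 3.10 to 3.17, in most samples. Meiob was at 3.84, 3.74 and 3.60 in HFD GFP livers, 3.72, 3.60 and 3.59 in HFD FST288 livers, 3.09 and 2.59 in LTKO GFP livers and 4.80 and 4.90 in LTKO FST288 livers. The HFD groups overlapped, and both LTKO FST288 arrays lay above every other array. The rise in LTKO livers was 4.03-fold (adjusted p = 0.000419), the response in HFD livers was -0.09, and the difference of 2.10 ± 0.23 was the largest of the 48 in size (adjusted p = 0.00506). A fold from such a low level is not an exact measure.

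Acaa1b (17532063) encodes a thiolase of peroxisomal fatty acid oxidation and has a close paralog, Acaa1a, with which its probes may share signal. Acaa1b was at 8.04, 8.20 and 8.05 in HFD GFP livers, 7.85, 7.79 and 7.81 in HFD FST288 livers, 9.03 and 8.86 in LTKO GFP livers and 9.71 and 9.55 in LTKO FST288 livers. Within each background the groups did not overlap, and they lay in opposite order. In LTKO livers it rose by 0.68 ± 0.10 (adjusted p = 0.0151), the HFD response was -0.28 ± 0.08 (adjusted p = 0.15), and the difference was 0.96 ± 0.13 (adjusted p = 0.0104). Resf1 (17464503) encodes a factor that helps to silence retroelements. Resf1 was at 5.87, 5.91 and 6.16 in HFD GFP livers, 5.26, 4.95 and 5.17 in HFD FST288 livers, 4.67 and 4.58 in LTKO GFP livers and 5.34 and 5.67 in LTKO FST288 livers. Levels with FST288 were lower in every HFD array and higher in both LTKO arrays. It fell by 0.86 on the log2 scale in HFD livers (adjusted p = 0.00605), its LTKO response of 0.88 just missed the threshold (adjusted p = 0.0503), and the difference was 1.74 ± 0.20 (adjusted p = 0.00654). Msmo1, a sterol enzyme with the same pattern, is described with its pathway.

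For the other 5 the response was called in HFD livers, and the LTKO response was 0.14 or less in size. Rnf125 (17348840) is a ubiquitin ligase that marks antiviral sensors for degradation. Rnf125 was at 9.69, 9.56 and 9.65 in HFD GFP livers, 8.80, 8.83 and 8.78 in HFD FST288 livers, 9.37 and 9.34 in LTKO GFP livers and 9.34 and 9.57 in LTKO FST288 livers. It fell by 0.83 ± 0.07 on the log2 scale in HFD livers (adjusted p = 0.000179), while the LTKO groups overlapped, and the responses differed by 0.93 ± 0.12 (adjusted p = 0.00924). Oat (17497091), ornithine aminotransferase, is an amino acid enzyme of the hepatocytes around the central vein. Oat was at 10.11, 10.33 and 10.20 in HFD GFP livers, 9.52, 9.47 and 9.41 in HFD FST288 livers, 11.09 and 10.97 in LTKO GFP livers and 11.09 and 11.25 in LTKO FST288 livers. The HFD FST288 arrays were the lowest of all. The fall in HFD livers was 0.75 on the log2 scale (response -0.75 ± 0.07, adjusted p = 0.000278), the LTKO response was 0.14, and the difference was 0.89 ± 0.12 (adjusted p = 0.00924).

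Retsat (17459676) encodes retinol saturase, an enzyme of vitamin A metabolism. Retsat was at 8.34, 8.30 and 8.42 in HFD GFP livers, 9.21, 9.26 and 9.29 in HFD FST288 livers, 10.58 and 10.54 in LTKO GFP livers and 10.71 and 10.57 in LTKO FST288 livers. It rose by 0.90 ± 0.07 in HFD livers (adjusted p = 5.59e-05) and stayed below the level of both LTKO groups, which overlapped. The difference was -0.82 ± 0.11 (adjusted p = 0.00924). Dmgdh (17289163), dimethylglycine dehydrogenase, is a mitochondrial enzyme of choline breakdown. Dmgdh was at 9.40, 9.32 and 9.36 in HFD GFP livers, 10.01, 10.09 and 10.01 in HFD FST288 livers, 9.36 and 9.23 in LTKO GFP livers and 9.19 and 9.19 in LTKO FST288 livers. The 3 HFD FST288 arrays lay above the other 7. It rose by 0.67 ± 0.06 in HFD livers (adjusted p = 0.000256), and the responses differed by -0.78 ± 0.10 (adjusted p = 0.00924).

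Cyp4a12a (17417180) is a fatty acid hydroxylase of the male mouse liver and kidney, nearly identical to Cyp4a12b, so that its signal may include the paralog. Cyp4a12a was at 6.29, 6.07 and 6.0 in HFD GFP livers, 7.58, 7.40 and 7.38 in HFD FST288 livers, 7.06 and 6.84 in LTKO GFP livers and 7.10 and 6.91 in LTKO FST288 livers. The HFD groups were far apart, and the LTKO groups overlapped. It rose 2.52-fold in HFD livers (adjusted p = 0.000114), its LTKO response was 0.06, and the difference was -1.27 ± 0.17 (adjusted p = 0.0112). Slc25a30 (17308714), a mitochondrial carrier, had the same pattern, with means of 6.33 ± 0.18 and 7.58 ± 0.20 in the HFD groups (SD, n = 3 and 3) and of 7.44 ± 0.13 and 7.39 ± 0.01 in the LTKO groups (n = 2 and 2). Its difference of -1.30 ± 0.19 (adjusted p = 0.019) was lost in 1 fit, that without HFD FST288 replicate 3.

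**Figure D2:**
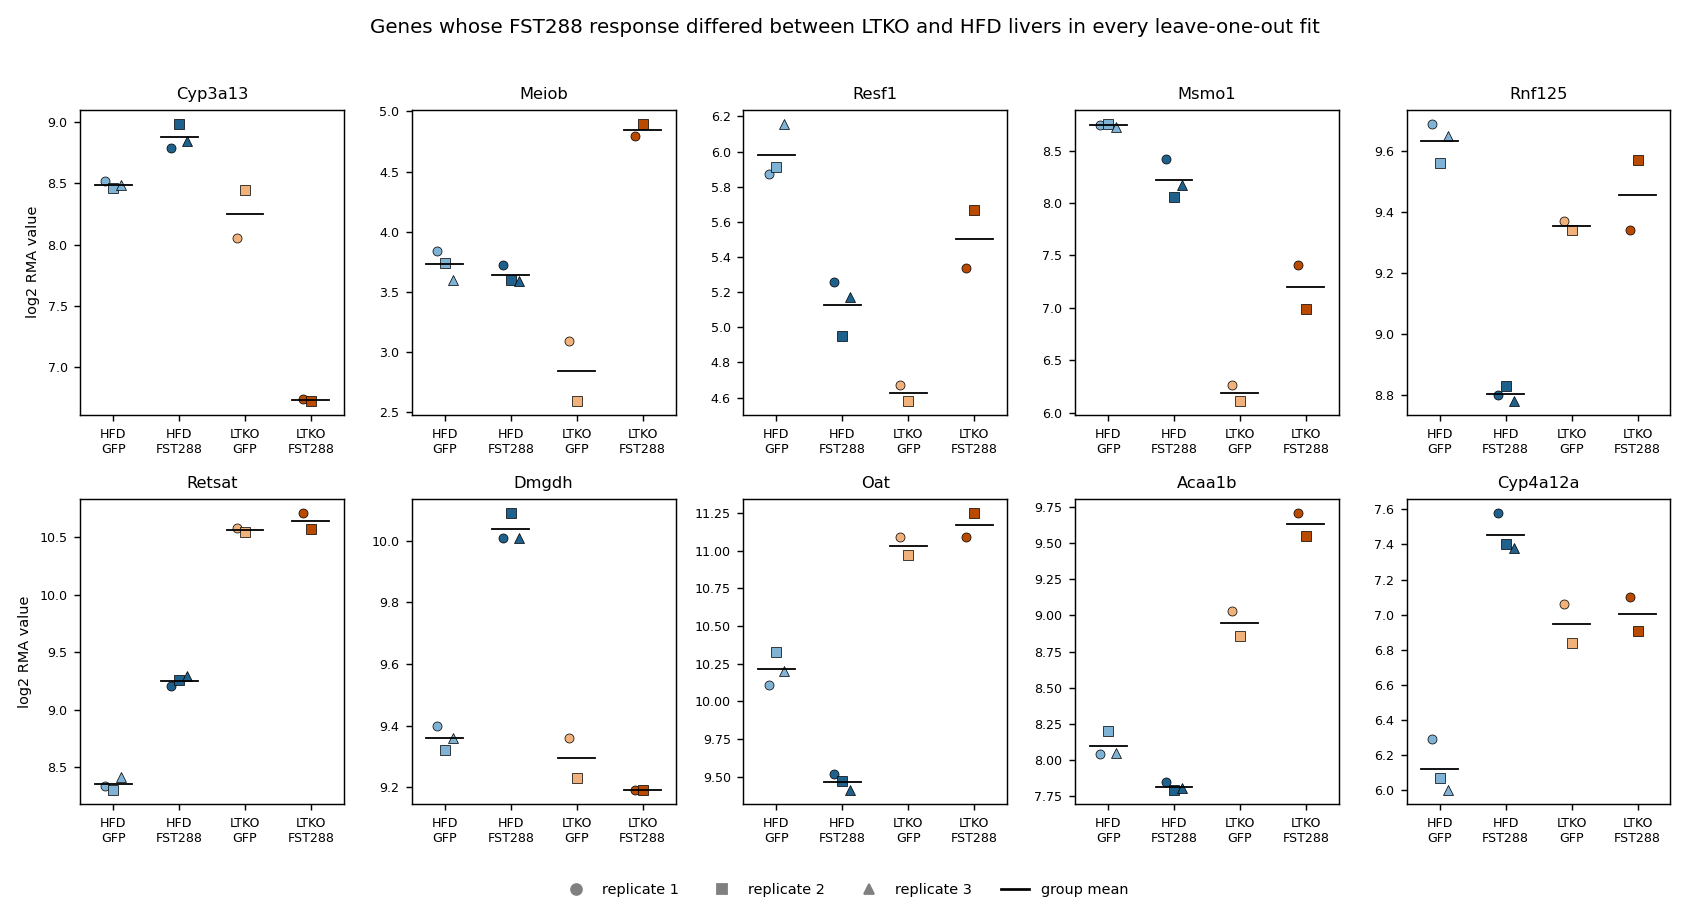
Log2 RMA values by array, with 1 panel per gene, for the 10 genes called in every fit that left out 1 array; points are arrays, bars are group means, and the groups are HFD GFP (3), HFD FST288 (3), LTKO GFP (2) and LTKO FST288 (2). In Cyp3a13 and Meiob the LTKO FST288 arrays stand apart from the other 8, and in Dmgdh the HFD FST288 arrays stand apart from the other 7.

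Genes whose response was called in HFD livers alone include further enzymes and transporters. In each of those given here except Itih3, the LTKO groups did not overlap either, and the uncalled LTKO response had the opposite sign. Over all genes the LTKO groups did not overlap in 37.8%. Nipal1, a magnesium transporter relative, fell by 0.87 on the log2 scale in HFD livers and had a response of 0.68 in LTKO livers, a difference of 1.55 ± 0.24 (limma, adjusted p = 0.0242). Itih3, a liver-made hyaluronan-binding protein of plasma, fell by 0.75 with all 3 HFD FST288 arrays below the HFD GFP arrays, and its difference was 0.70 ± 0.12 (adjusted p = 0.0351). Slc35g1 rose by 0.64 and differed by -0.84 ± 0.13 (adjusted p = 0.0242), and Slc22a28, of the organic anion transporter family, rose by 0.66 and differed by -1.13 ± 0.20 (adjusted p = 0.0413). Pex26, a membrane anchor for the import of peroxisomal enzymes, rose by 0.72 and differed by -1.20 ± 0.22 (adjusted p = 0.0458). Eci2, an enoyl-CoA isomerase, rose by 0.44 and differed by -0.65 ± 0.12 (adjusted p = 0.0473). Mettl7a1, Atrn, Kank2 and Ifi203-ps, which with Eci2 lie outside the rule for named genes, had differences of -0.68, -0.67, 1.11 and 1.09.

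Il1r1, the signalling receptor for interleukin-1, was also called in HFD livers alone. Il1r1 (17212185) was at 7.43, 6.85 and 7.23 in HFD GFP livers, 8.13, 8.13 and 8.10 in HFD FST288 livers, 6.02 and 5.92 in LTKO GFP livers and 5.87 and 5.74 in LTKO FST288 livers. All 4 LTKO arrays lay below all 6 HFD arrays. It rose 1.94-fold in HFD livers (adjusted p = 0.0025), the LTKO response was -0.17 ± 0.15 (adjusted p = 0.783), and the difference was -1.12 ± 0.20 (adjusted p = 0.0441).

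Among genes called in LTKO livers alone, Wdyhv1, an amidase acting on N-terminal glutamine, rose 2.07-fold there from 5.26 ± 0.03 to 6.31 ± 0.06 (SD, n = 2 and 2), and its difference was 1.23 ± 0.19 (adjusted p = 0.028). A second, dimmer cluster of the same gene had a difference of -0.37, and the mean of its clusters gave 0.43. Glt1d1, a glycosyltransferase relative, fell 2.48-fold in LTKO livers, with GFP arrays at 5.32 and 5.75 and FST288 arrays at 4.27 and 4.18, and its difference was -1.40 ± 0.24 (adjusted p = 0.0384). Ifnl3, an interferon of the lambda class, fell 2.93-fold from a mean of 4.64 to 3.08, low levels at which the fold is not exact, and its difference was -1.75 ± 0.28 (adjusted p = 0.028).

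Of the 48, 5 genes were lower with FST288 in both backgrounds by point estimate. In Itih3 and Hmgcs1 the LTKO response was -0.05 and -0.07, while Csad, Arrdc3 and Serpina4-ps1 were lower by a wider margin in both. Csad (17322146), which makes the precursor of taurine, was at 6.35, 6.66 and 6.44 in HFD GFP livers, 4.48, 4.48 and 4.65 in HFD FST288 livers, 9.28 and 9.23 in LTKO GFP livers and 8.30 and 8.10 in LTKO FST288 livers. The groups did not overlap in either background, and all LTKO arrays lay above all HFD arrays. It fell 3.86-fold in HFD livers (adjusted p = 1.58e-06) and 2.08-fold in LTKO livers (adjusted p = 0.00533), a difference of 0.90 ± 0.16 (adjusted p = 0.0495).

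Arrdc3 (17288876), an alpha-arrestin that helps to sort membrane receptors, was at 8.12, 8.01 and 7.98 in HFD GFP livers, 7.45, 7.65 and 7.46 in HFD FST288 livers, 9.20 and 8.50 in LTKO GFP livers and 7.19 and 6.63 in LTKO FST288 livers. It fell 3.84-fold in LTKO livers (adjusted p = 0.00137), the HFD response was -0.52 ± 0.16 (adjusted p = 0.187), and the difference was -1.42 ± 0.26 (adjusted p = 0.0495). Here the LTKO GFP arrays were the highest and the LTKO FST288 arrays the lowest of all. Serpina4-ps1, a serpin pseudogene whose signal may come from related serpins, had group means of 9.64 and 9.06 in HFD livers and of 5.77 and 3.86 in LTKO livers, so that it fell 3.74-fold in LTKO livers. Its difference was -1.32 ± 0.24 (adjusted p = 0.0495). The calls of these last 3 sit at the edge of the threshold, and that of Csad was lost whichever of the 10 arrays was left out, with differences from 0.80 upwards.

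Cholesterol synthesis held 3 of the 48 genes, and the median response of its measured members was -0.14 in HFD livers and 0.31 in LTKO livers. Of 17 measured genes of cholesterol synthesis and uptake, 3 were called with a higher response in LTKO livers and none with a lower one (0.117% and 0.0992% of all genes). All 17 differences were above 0, with a median of 0.49 against -0.01 over all genes, and 9 passed an unadjusted p under 0.05 (6.02% of all genes in that direction).

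The bases before the start of 2 of the called genes are shown because SREBP factors act on such promoters and because 1 holds the letters of a classical sterol regulatory element and the other does not. They are 250 bases each from RefSeq, build GRCm38.p6, Hmgcs1 from chr13:119690101-119690350 on the plus strand and Msmo1 from chr8:64733579-64733828 on the minus strand, 5′ to 3′, with the match in capitals.
Hmgcs1: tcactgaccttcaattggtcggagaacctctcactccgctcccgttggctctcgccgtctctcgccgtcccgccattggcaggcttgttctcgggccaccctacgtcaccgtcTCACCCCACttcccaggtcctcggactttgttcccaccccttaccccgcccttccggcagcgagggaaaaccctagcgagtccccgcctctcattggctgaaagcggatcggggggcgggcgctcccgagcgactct
Msmo1: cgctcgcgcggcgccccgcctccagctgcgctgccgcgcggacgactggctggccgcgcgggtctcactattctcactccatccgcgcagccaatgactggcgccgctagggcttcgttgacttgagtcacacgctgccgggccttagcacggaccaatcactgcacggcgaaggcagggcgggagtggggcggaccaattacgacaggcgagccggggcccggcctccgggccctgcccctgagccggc

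The match in Hmgcs1 starts 137 bases before the transcription start. The letters searched were TCACNCCAC on both strands, chosen after seeing the data, in windows of 300 bases that also take in 50 bases after the start. They were found in 2 of 33 windows of the called genes (6.06%), those of Hmgcs1 and Itih3, and in 1.24% of 32851 windows of all genes. Among 18 windows of the cholesterol synthesis and uptake list they were in 1 (5.56%), that of Hmgcs1. The forkhead letters TGTTTAC, searched the same way, were in 0 of the 33 and in 3.65% of all windows. Promoter windows were matched for 28 of the 48 genes.

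Msmo1 (17509629), methylsterol monooxygenase, is a late enzyme of the pathway. Msmo1 was at 8.75, 8.76 and 8.73 in HFD GFP livers, 8.42, 8.06 and 8.17 in HFD FST288 livers, 6.26 and 6.11 in LTKO GFP livers and 7.41 and 6.99 in LTKO FST288 livers. Levels with FST288 were lower on every HFD array and higher on both LTKO arrays, which stayed below all HFD arrays. It rose 2.02-fold in LTKO livers (adjusted p = 0.0142), the HFD response was -0.53 ± 0.12 (adjusted p = 0.0503), and the difference was 1.55 ± 0.18 (limma, adjusted p = 0.00654). Sqle (17311807), squalene epoxidase, the first oxygenation step of the pathway, had means of 7.15 ± 0.03 and 6.64 ± 0.15 in the HFD groups and 5.03 ± 0.50 and 5.93 ± 0.17 in the LTKO groups. Neither response was called alone (-0.52 and 0.89), and their difference was 1.41 ± 0.24 (adjusted p = 0.0413). Hmgcs1 (17290173), which makes HMG-CoA, was at 9.73, 9.63 and 9.68 in HFD GFP livers, 8.87, 8.72 and 8.83 in HFD FST288 livers, 8.60 and 8.72 in LTKO GFP livers and 8.51 and 8.68 in LTKO FST288 livers. The HFD FST288 arrays came down to the level of the LTKO arrays. It fell 1.83-fold in HFD livers (adjusted p = 0.000179), the LTKO groups overlapped, and the difference was 0.80 ± 0.12 (adjusted p = 0.0227).

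Other members had differences of 0.72 in Cyp51, 0.64 in Insig1, 0.62 in Lss, 0.56 in Hsd17b7 and 0.55 in Dhcr7, each with an unadjusted p under 0.05 and an adjusted p from 0.176 to 0.345; these 5 were chosen after their values were seen. Srebf2, the gene of the factor that drives the pathway, had a difference of 0.05. The calls in this list changed with the arrays and settings used. With the acinar marker median as a covariate no member was called, the median was 0.36 and 15 of 17 differences were above 0; Msmo1 then stood at 1.35 (adjusted p = 0.0562). Without both acinar-high arrays no member was called and the median was 0.35. Leaving out HFD FST288 replicate 2 or 3 alone left 1 member called, as did leaving out any 1 of the HFD GFP arrays. With eBayes without the intensity trend 0 were left. The part of acinar RNA in these calls was not tested beyond these settings. Without LTKO FST288 replicate 1 the median was 0.34, 14 of 17 differences were above 0 and 6 passed without adjustment, with 3 called; without replicate 2 the median was 0.53, all 17 were above 0 and 3 were called.

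**Figure D3:**
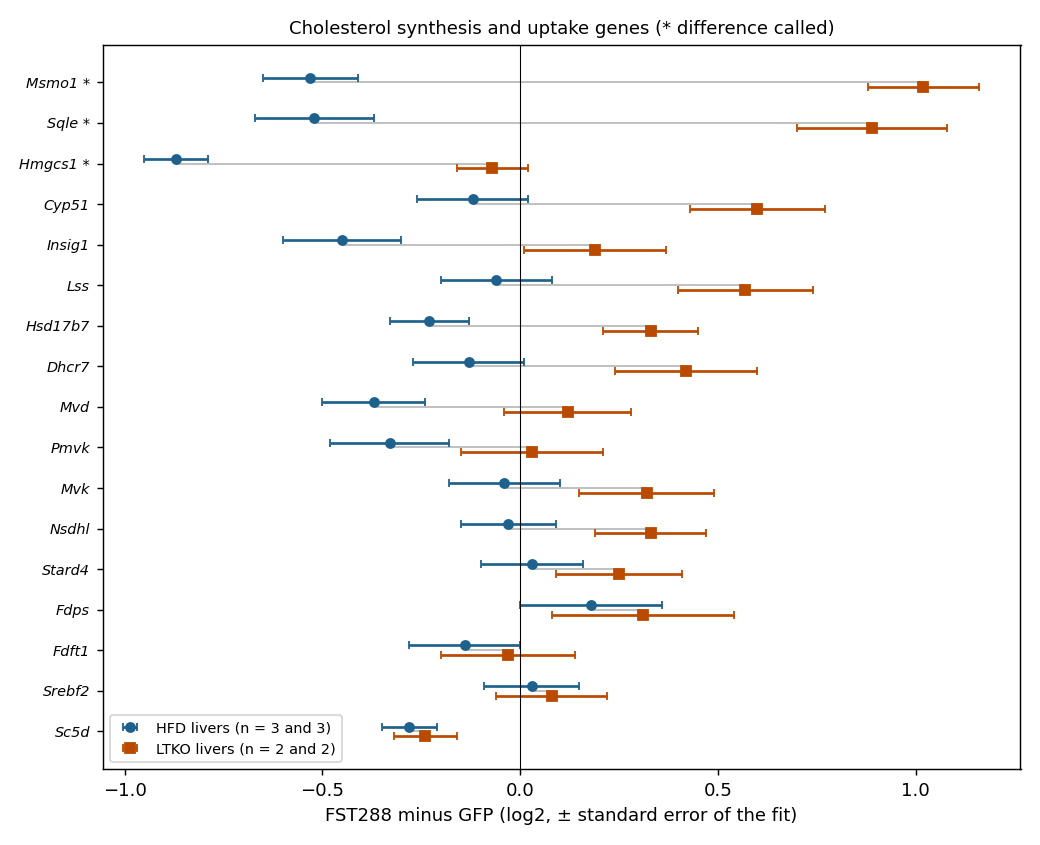
Log2 response to FST288 (FST288 minus GFP, with the SE of the fit) of the 17 measured genes of cholesterol synthesis and uptake in HFD livers (circles, 3 against 3 arrays) and in LTKO livers (squares, 2 against 2 arrays), ordered by their difference; asterisks mark the 3 called differences. The square lies to the right of the circle in all 17 genes.

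Fatty acid synthesis genes had a median difference near 0. Of 22 measured genes none was called, and the median was 0.03. An unadjusted p under 0.05 was reached by 5 with a higher LTKO response and 1 with a lower one (6.02% and 6.58% of all genes). Srebf1, the gene of the lipogenic SREBP factor, fell in HFD livers (-1.17, adjusted p = 0.00108) and had a response of -0.16 in LTKO livers, where it was already low at 5.64 and 5.81 with GFP; the difference was 1.01 ± 0.22 (adjusted p = 0.0882). Elovl5, a fatty acid elongase, differed by 0.59 (adjusted p = 0.134). Fatty acid oxidation and ketogenesis held Acaa1b as its single called member of 25, with 4 unadjusted in each direction and a median of 0.01, and its next gene, Acadl, was not called. Among 22 lipid droplet and fatty acid binding genes, Cidec, a lipid droplet protein, rose by 1.08 in LTKO livers (adjusted p = 0.0142), with a difference of 0.91 ± 0.20 (adjusted p = 0.0911). Fabp2 differed by 0.92 (adjusted p = 0.144).

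Bile acid and lipoprotein genes gave no call. Cyp7a1, the rate-limiting enzyme of bile acid synthesis, differed by 1.09 ± 0.25 (adjusted p = 0.0966), with responses of -0.55 in HFD and 0.54 in LTKO livers, and Abcc3, an exporter of conjugates, fell in HFD livers (-0.96, adjusted p = 0.00254) with a difference of 0.91 (adjusted p = 0.0961). Without LTKO GFP replicate 1 the difference in Cyp7a1 was 1.49, and without replicate 2 it was 0.69, each with a single LTKO GFP array left. Apoa4 and Pltp, of the lipoproteins, differed by 0.84 and 0.80 (adjusted p = 0.13 and 0.146).

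Antigen presentation held 2 of the 48 genes, and its median, like that of the macrophage markers, moved with LTKO FST288 replicate 2. In a whole liver, more cells of a type and more RNA per cell cannot be told apart. Of 18 antigen presentation genes 2 were called, both with a higher response in LTKO livers (0.117% of all genes in that direction). Without adjustment 8 passed p under 0.05, all with a higher response (6.02% of all genes). The median was 0.68, against -0.01 over all genes. The called genes, H2-Q4 and H2-T23, are MHC class I genes of a family with near-identical members, so that their probes may read relatives.

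H2-Q4 (17337100) was at 5.98, 5.84 and 5.75 in HFD GFP livers, 5.66, 5.62 and 5.70 in HFD FST288 livers, 4.92 and 4.59 in LTKO GFP livers and 5.80 and 6.64 in LTKO FST288 livers. It rose 2.76-fold in LTKO livers (adjusted p = 0.0151), and the difference was 1.66 ± 0.28 (limma, adjusted p = 0.0347). A second, dim H2-Q4 cluster had a difference of -0.03, and the mean of its clusters gave 0.82. H2-T23 (17344568) was at 7.24, 6.98 and 6.89 in HFD GFP livers, 6.97, 6.98 and 6.92 in HFD FST288 livers, 5.14 and 4.94 in LTKO GFP livers and 6.09 and 7.07 in LTKO FST288 livers. It rose 2.90-fold in LTKO livers (adjusted p = 0.0166), and the difference was 1.62 ± 0.30 (adjusted p = 0.0495). In both genes the 2 LTKO FST288 arrays were higher than the LTKO GFP arrays and about 1 log2 unit apart, replicate 2 above replicate 1. Without replicate 2 the differences were 1.24 and 1.13, in a fit that keeps a single LTKO FST288 array. Both calls were lost when any 1 of the HFD GFP arrays, or HFD FST288 replicate 2 or 3, was left out.

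The class II genes H2-Eb1 and H2-Ab1, which load peptides in antigen-presenting cells, had differences of 2.33 ± 0.48 (adjusted p = 0.0779) and 2.30 ± 0.61 (adjusted p = 0.157). H2-Ab1 was at 7.75 on LTKO FST288 replicate 1 and 9.91 on replicate 2, against 5.88 to 6.92 on the other 8 arrays. Of 16 Kupffer cell and macrophage markers none was called, and the median was 0.67. An unadjusted p under 0.05 was reached by 7 with a higher response and 1 with a lower one (6.02% and 6.58% of all genes). The scavenger receptor Marco differed by 2.72 ± 0.61 (adjusted p = 0.0963) and the macrophage marker Adgre1 by 1.51 ± 0.42 (adjusted p = 0.167). Marco was at 5.48 on LTKO FST288 replicate 1 and 7.59 on replicate 2, with all other arrays between 3.97 and 5.19.

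Among 27 interferon-stimulated genes none was called, 8 were unadjusted higher and 1 lower (6.02% and 6.58% of all genes), and the median was 0.52. Gbp6 differed by 0.78 (adjusted p = 0.158) and Oas3 by -0.67 (adjusted p = 0.196). The chemokine Cxcl9 was at 5.82 on LTKO FST288 replicate 1 and 9.12 on replicate 2, with the HFD arrays between 6.77 and 7.29. Without LTKO FST288 replicate 2 the medians were 0.16 for antigen presentation, 0.05 for interferon-stimulated genes and 0.17 for macrophage markers. Without replicate 1 in its place they were 1.25, 0.74 and 1.15, with 10, 9 and 8 members called. With the macrophage marker median as a covariate, an alternative chosen after seeing the data, no antigen presentation gene was called and their median was 0.22. The part of macrophage RNA in the other differences was not tested beyond that covariate, with which 23 genes were called.

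**Figure D4:**
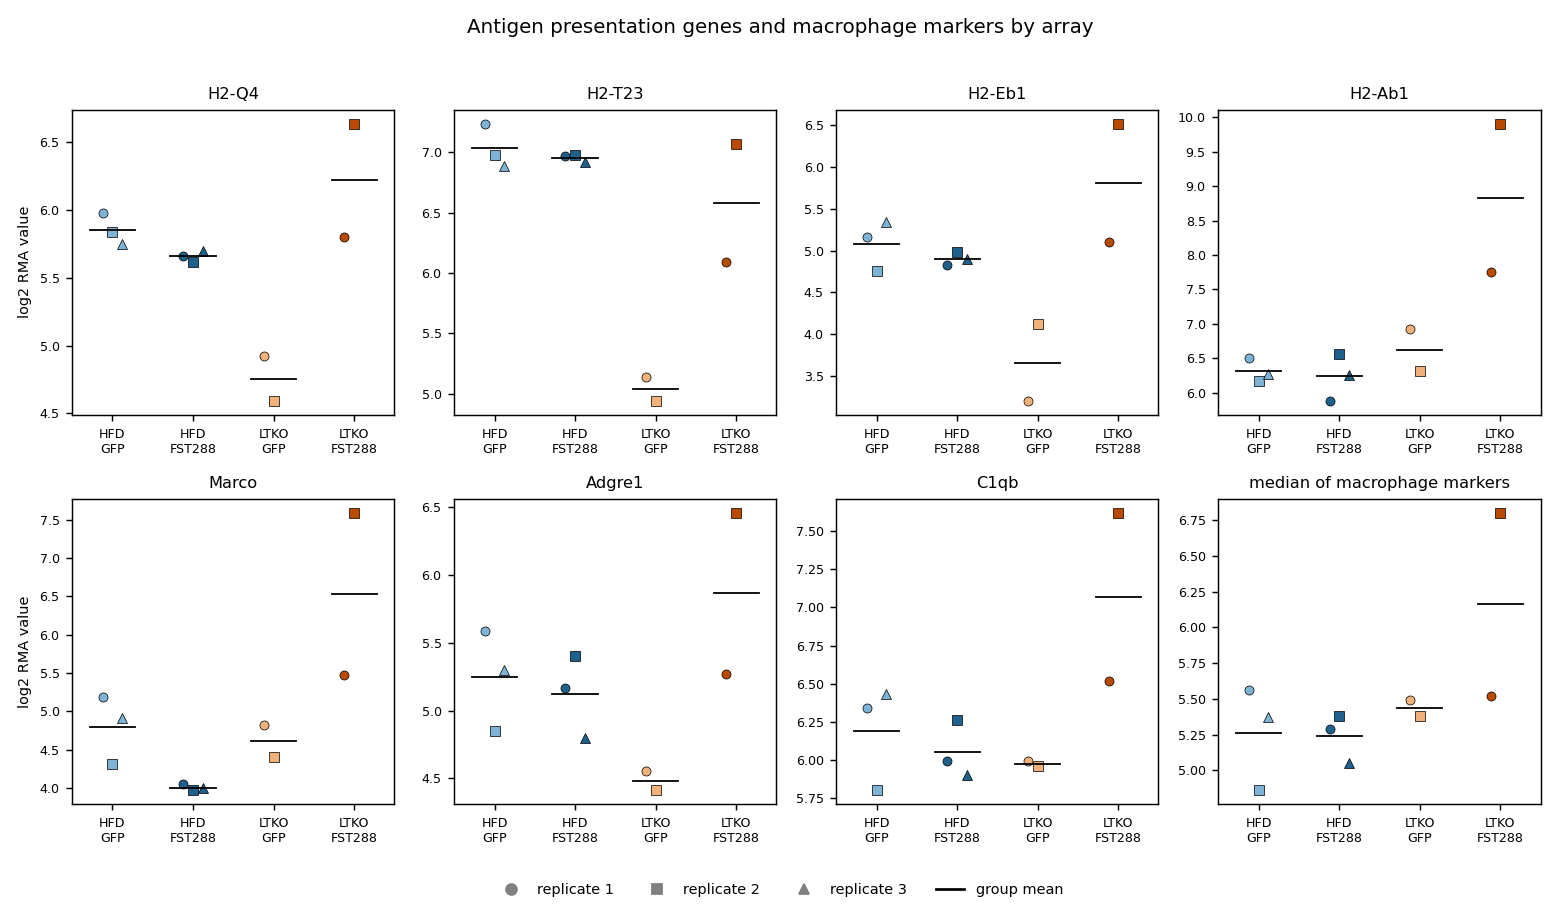
Log2 RMA values by array for the antigen presentation genes H2-Q4, H2-T23, H2-Eb1 and H2-Ab1, the macrophage markers Marco, Adgre1 and C1qb and the median of 16 macrophage markers; points are arrays, bars are group means, and groups are as labelled (3, 3, 2 and 2 arrays). LTKO FST288 replicate 2 is the highest array in H2-Q4, H2-Eb1, H2-Ab1, Marco and Adgre1, and its marker median is 6.80.

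Other immune genes among the 48 included Ifnl3 and Il1r1, described above, with differences of -1.75 and -1.12. Rasgef1b, Ifi204 and the pseudogene Ifi203-ps were among those with a higher response in LTKO livers. Rasgef1b, an exchange factor for Ras-like proteins that macrophages induce, was at 5.65, 5.71 and 5.99 in HFD GFP livers, 4.84, 5.01 and 5.06 in HFD FST288 livers, 4.84 and 5.01 in LTKO GFP livers and 5.54 and 6.62 in LTKO FST288 livers. Neither response was called alone, and the difference was 1.97 ± 0.33 (limma, adjusted p = 0.0355), or 1.43 without LTKO FST288 replicate 2. The call of Rasgef1b was lost when any 1 of the HFD GFP arrays, or HFD FST288 replicate 2 or 3, was left out. Ifi204, a sensor of foreign DNA, differed by 1.42 ± 0.25 (adjusted p = 0.0455) with all group means below the median of named genes. The 29 acute phase genes held 1 called in each direction, Itih3 and Il1r1, and a median of 0.14. Of 23 chemokine and adhesion genes none was called, with Cxcl13 and Ccl7 leading. None of 14 T and NK cell markers, 10 B and plasma cell markers or 12 neutrophil markers was called (medians 0.22, 0.03 and 0.04).

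The unfolded protein response held 1 of the 48 genes, Ern1. Of 21 measured members 1 was called lower and none higher (0.0992% and 0.117% of all genes), 11 had an unadjusted p under 0.05 with a lower response (6.58% of all genes), and 19 differences were 0 or below. The median was -0.35. Ern1 (17270888), the membrane sensor IRE1, was at 6.64, 6.63 and 6.76 in HFD GFP livers, 7.09, 7.26 and 7.14 in HFD FST288 livers, 6.54 and 6.95 in LTKO GFP livers and 6.13 and 6.17 in LTKO FST288 livers. The groups did not overlap in either background and lay in opposite order. Its responses were 0.49 (adjusted p = 0.056) and -0.59 (adjusted p = 0.142), and they differed by -1.08 ± 0.17 (limma, adjusted p = 0.0296). Xbp1, the transcription factor whose transcript IRE1 splices, differed by -0.60 ± 0.13 (adjusted p = 0.0882), and the chaperone gene Hspa5 by -0.63 ± 0.16 (adjusted p = 0.144; Hspa5 lies outside the rule for named genes). With the acinar covariate no member was called and the median was -0.22, as without both acinar-high arrays. Leaving out LTKO GFP replicate 2 gave a median of -0.21, and leaving out replicate 1 gave -0.51. Acinar cells are rich in such transcripts, and the part of acinar RNA in the HFD response was not tested beyond these settings.

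Oxidative phosphorylation genes gave no call. Of 29 members 13 had an unadjusted p under 0.05 with a lower response in LTKO livers and 0 with a higher one (6.58% and 6.02% of all genes). The median was -0.24. The count of 13 was 5 without LTKO GFP replicate 1 (median -0.17), 6 after quantile normalization (median -0.16), 6 with eBayes without the intensity trend, and 4 with the acinar covariate or without both acinar-high arrays (median -0.21 in each). Cox8a, a subunit of cytochrome c oxidase, was at 8.24, 8.42 and 8.38 in HFD GFP livers, 8.46, 8.61 and 8.73 in HFD FST288 livers, 9.15 and 9.16 in LTKO GFP livers and 8.58 and 8.75 in LTKO FST288 livers. Its difference of -0.74 ± 0.14 just missed the threshold (adjusted p = 0.0534); over the fits without 1 array it ran from -0.83 to -0.66 and was called in 1 of the 10, that without HFD FST288 replicate 1 (adjusted p = 0.0282). Cox4i1, of the same complex, differed by -0.55 (adjusted p = 0.0961). Of 17 cytosolic ribosomal protein genes none was called, with Rpl3 and Rpl15 leading and a median of -0.16.

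Sex-biased liver genes gave 1 call. Of 19 male-predominant genes Cyp4a12a was called lower, 6 were unadjusted lower and 1 higher (6.58% and 6.02% of all genes), and the median was -0.49. Of 20 female-predominant genes none was called, 5 were unadjusted higher, 12 differences were above 0, and the median was 0.25, or 0.13 with the acinar covariate. Cyp2a4, a steroid hydroxylase, was at 8.81 and 8.60 in LTKO FST288 livers, above the 7.51 and 7.72 in LTKO GFP livers and all HFD arrays, with a difference of 1.16 ± 0.23 (adjusted p = 0.0696). Cyp2b9 was at 4.91 and 7.77 in LTKO FST288 livers against 2.22 to 3.25 on the other 8 arrays, a difference of 3.19 ± 0.76 (limma, adjusted p = 0.112). It was 4.63 without replicate 1 and 1.76 without replicate 2, each with a single LTKO FST288 array left. Ugt2b1, of the male-predominant genes, differed by -0.35 (adjusted p = 0.129). Without LTKO FST288 replicate 2 the male-predominant median was -0.15, and without replicate 1 it was -0.95 with 8 called. All mice were labelled male.

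The cytochrome P450 families 1 to 3 showed no common shift, with Cyp3a13 called among 32 members and a median of 0.05. Of these, 8 were unadjusted higher and 6 lower (6.02% and 6.58% of all genes). Cyp2c70, a hydroxylase of bile acids, rose in HFD livers (0.79, adjusted p = 0.000973) and differed by -0.76 (adjusted p = 0.0578). Conjugating enzymes and NRF2 and glutathione genes had no call and medians of -0.07 and -0.04. Pericentral hepatocyte markers, 12 in all, had Oat called higher, 4 unadjusted higher and a median of 0.35, with a median HFD response of -0.29 and a median LTKO response of 0. Of 10 periportal markers none was called (median -0.16). Among 24 urea cycle and amino acid genes Oat and Csad were called, with a median of 0.06.

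For insulin and FoxO1 the data gave no called difference. Of 26 FoxO1 and insulin-responsive genes none was called, with 5 unadjusted higher, 4 lower (6.02% and 6.58% of all genes) and a median of -0.10. Igfbp1, a FoxO1 target that binds insulin-like growth factors, was at 8.29, 8.06 and 8.39 in HFD GFP livers, 7.94, 8.32 and 8.20 in HFD FST288 livers, 7.99 and 9.27 in LTKO GFP livers and 9.85 and 10.24 in LTKO FST288 livers. The LTKO FST288 arrays were the highest, while the 2 LTKO GFP arrays lay far apart. The difference was 1.51 ± 0.37 (limma, adjusted p = 0.13). It was 2.15 without LTKO GFP replicate 2 and 0.87 without replicate 1, each with a single LTKO GFP array left. Txnip, a glucose-induced inhibitor of thioredoxin, rose in HFD livers (1.22, adjusted p = 0.00216) and differed by -1.16 ± 0.25 (adjusted p = 0.0882). Among 17 glucose production genes none was called, and the median was 0.01. Pck1 differed by 0.46 ± 0.16 (adjusted p = 0.27) and G6pc by 0.32 ± 0.22 (adjusted p = 0.603); they encode an early and the last step of glucose production. Ugp2 and Ppargc1a differed by -0.55 and 0.77 (adjusted p = 0.107 and 0.169). Igfbp2, another IGF carrier, fell in HFD livers (-0.82, adjusted p = 0.00111) and differed by 0.74 (adjusted p = 0.082). Of 11 glycolysis genes 4 were unadjusted lower and none was called.

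The ligands that follistatin binds, their receptors and their targets gave no called difference either. Of 33 activin, TGF-beta and BMP ligands, receptors and inhibitors 3 were unadjusted higher and 0 lower (6.02% and 6.58% of all genes), with a median of -0.05. The activin and inhibin subunit genes Inhba, Inhbb, Inhbc and Inhbe differed by -0.54, -0.61, -0.27 and -0.14 (adjusted p from 0.447 to 0.821), and the related binding protein gene Fstl3 by -0.08 (adjusted p = 0.92). Mstn, the gene of myostatin, and Acvr1b, an activin type I receptor, led the list with 0.42 and 0.52 (adjusted p = 0.313 and 0.369). Of 19 SMAD-responsive genes 2 were unadjusted higher, Hamp, the gene of the iron hormone hepcidin (0.72, adjusted p = 0.287), and Skil, a SMAD repressor (0.82, adjusted p = 0.336). Fgf21, a hormone of fasting, differed by -1.20 ± 0.50 (limma, adjusted p = 0.352). The difference was -2.05 without LTKO FST288 replicate 2 and -0.34 without replicate 1, each with a single LTKO FST288 array left.

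The other transcription lists gave single genes near the threshold. E2f8, an atypical E2F repressor of cell cycle genes, rose in HFD livers (1.39, adjusted p = 0.000973) and differed by -1.36 ± 0.26 (adjusted p = 0.0578); it was called in 5 other settings. Zbtb16, a glucocorticoid-induced factor, rose by 1.45 in HFD livers and differed by -1.30 ± 0.28 (adjusted p = 0.0882). Per1, of the circadian clock, differed by 1.07 ± 0.24 (adjusted p = 0.0966). None of the 18 clock, 15 glucocorticoid-induced, 18 hepatocyte transcription factor, 26 cell cycle, 16 p53, 21 ERK feedback or 20 integrated stress response genes was called. In all, 37 of the 46 lists had no called member. Among those 37 the median differences ran from -0.24 to 0.67 besides the acinar list at -2.77, in which 7 of 12 markers were unadjusted lower.

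Small RNA genes made up 7 of the 48, with 73 small nucleolar RNA and 472 microRNA genes among the 22180 tested. Of 73 small nucleolar RNA genes 5 were called, 4 lower and 1 higher (0.0992% and 0.117% of all genes), 21 were unadjusted lower and 6 higher (6.58% and 6.02%), and the median was -0.28. Without LTKO GFP replicate 1 the median was -0.12 with 11 unadjusted lower, and without replicate 2 it was -0.48 with 32. None was called without HFD GFP replicate 1, without HFD FST288 replicate 3, with eBayes without the intensity trend, with the acinar covariate or without both acinar-high arrays. Snora33, Snord35a, Snord110 and Snord35b had differences of -0.61, -0.83, -0.66 and -1.02, each with HFD FST288 arrays above HFD GFP arrays and LTKO FST288 arrays below LTKO GFP arrays, and Snord118 had 1.20. For Snora33 a second cluster went the other way (0.82). Of 472 microRNA genes 2 were called, both higher (0.117% of all genes), and 58 were unadjusted higher and 35 lower (6.02% and 6.58%). The called ones were Mir466h (2.03 ± 0.30, limma, adjusted p = 0.0202) and Mir1983 (1.03 ± 0.17, adjusted p = 0.0347), the latter below the median of named genes on every array. An array cluster of this kind reads precursor or host RNA and does not show the mature microRNA. The predicted loci Gm4956, Gm14327 and Gm7367 and the olfactory receptor gene Olfr1454 differed by -1.75, 1.50, 1.16 and 1.59. The remaining called genes were Mlh3, a mismatch repair protein (1.34, adjusted p = 0.0455), and Fam241a (1.14, adjusted p = 0.0413).

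How many genes were called depended strongly on the arrays. Over the fits that left out 1 array no difference of the 48 moved by over 1.5 times, but some ranges were wide, such as 1.13 to 2.11 in H2-T23, 1.24 to 2.08 in H2-Q4 and -1.77 to -1.07 in Arrdc3. Leaving out HFD GFP replicates 1, 2 and 3 gave 15, 13 and 15 genes, of which 14, 11 and 15 were among the 48. Without HFD FST288 replicates 1, 2 and 3 there were 85, 14 and 11, with 39, 14 and 11 of the 48. Without LTKO GFP replicates 1 and 2 there were 44 and 30, with 24 and 15 of the 48. Without LTKO FST288 replicate 1 there were 266, of which 44 were among the 48 and 18 were antigen presentation or macrophage genes, and without replicate 2 there were 42, with 24 of the 48. Each fit without 1 LTKO array leaves a group with a single array, which is then assumed to vary like the others. Of the 48, 14 were called in 5 or more of the 10 fits, 10 of them in all, and 4 (Atrn, Csad, Ifi203-ps and Kank2) were called in none of them. The sign of the difference was the same in every setting for 47 of the 48, the exception being Snora33.

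**Figure D5:**
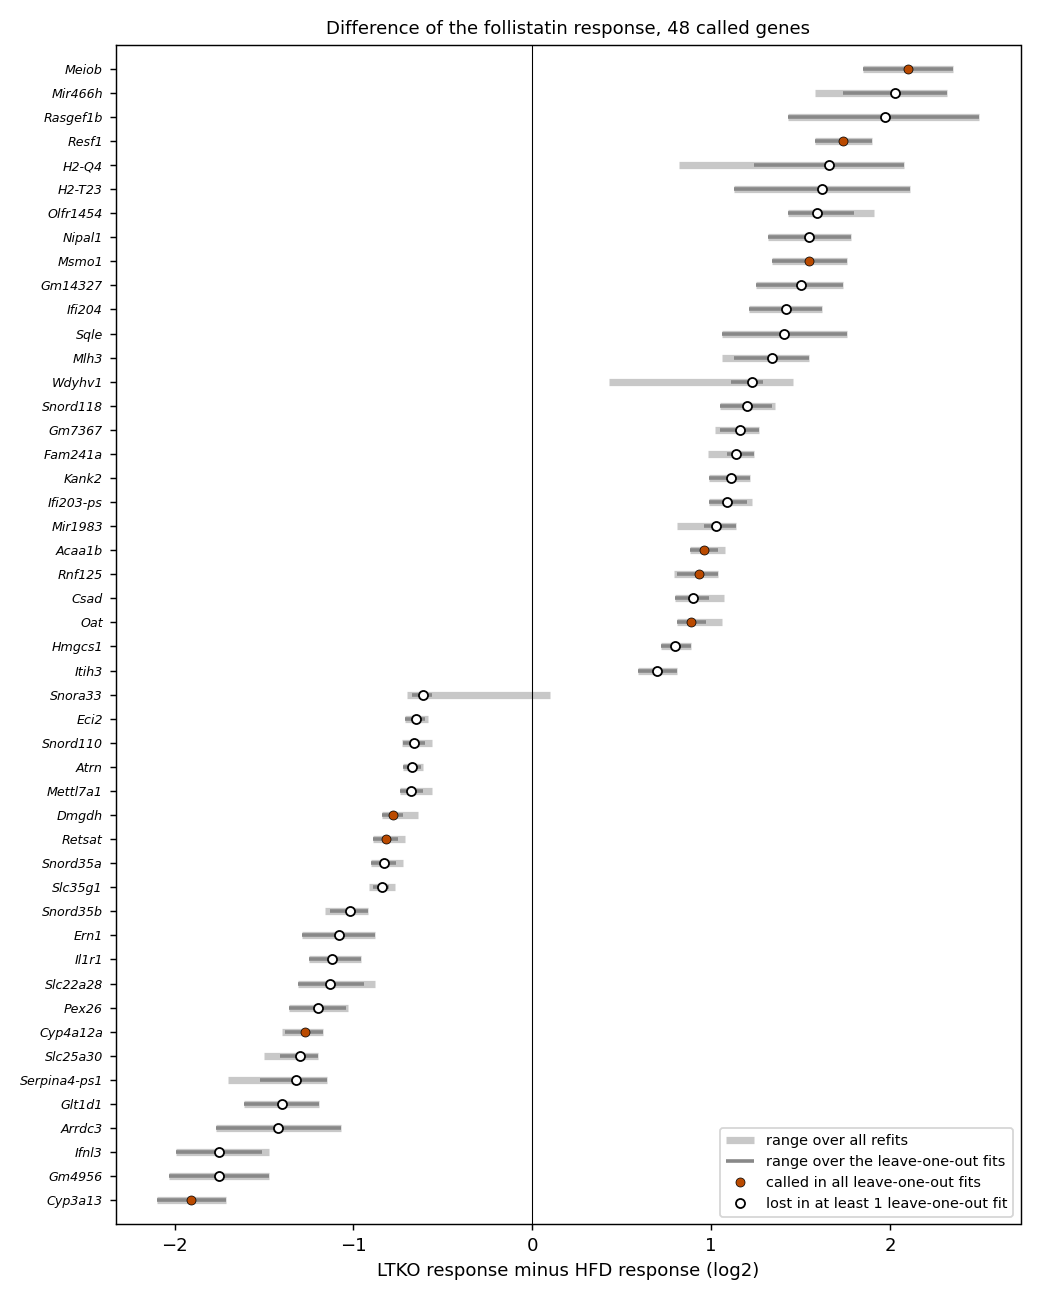
Difference of the FST288 response (LTKO minus HFD, log2) for the 48 called genes, with filled points for the 10 called in every fit that left out 1 array and open points for the others; dark lines span the fits that left out 1 array and pale lines all settings. The pale line of Snora33 crosses 0, and the lines of the other 47 genes do not.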

How the data were processed

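RNA of 10 mouse livers was hybridised to Affymetrix whole-transcript arrays, 1 per sample. Per the labels' protocols, 500 ng of RNA gave 5.5 µg of labelled DNA per array. The authors deposited log2 values that, per the submitters' processing notes, were made with RMA in Affymetrix Expression Console (version not given in the sources used here). RMA subtracts background, gives all arrays 1 distribution and reduces the probes of a transcript cluster to 1 value. That the logarithm has base 2 follows from RMA and from values of 0.64 to 13.21. The table holds 41345 clusters with 0 missing values and array medians of 2.71 to 2.75. Arrays hold no counts, and their number limits the precision.

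Clusters were named with the supplied platform annotation: 23521 had 1 symbol, 1814 several and 16010 none or no entry. The brightest cluster by mean over all arrays was used for the 1082 genes with several, which left 22180 genes and no filter on dim ones. The 4 group means were estimated from the 10 arrays together by limma 3.58.1, run in R 4.3.3 (lmFit, eBayes with intensity trend, 6 residual and 7.15 prior degrees of freedom). Tests were two-sided, with p adjusted by Benjamini-Hochberg over all genes. Errors of differences are SE of the fit, and those of group means SD. The comparisons share arrays, so that the classes by background describe the genes. The procedure was tested on simulated arrays with independent noise, 1 mean per gene and added differences of known size. These held no array-wide acinar or macrophage shifts, so that they do not show how such shifts affect the calls.

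Named genes were the 12 called with the largest difference in each direction, 4 per response class, the 2 members of each of 46 lists (33 pathway, 13 cell type) with the smallest p, and a set of insulin and activin genes; predicted loci, small RNA and olfactory genes were left out of the first 2 rules. The members and lists were chosen with earlier results of these data known. Alternatives changed the arrays, moderation, weights, normalization, dim filter, clusters, covariates and thresholds. Promoter sequences are RefSeq's, build GRCm38.p6.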

Additional observations from a re-analysis of the deposited data

Results flagged for a closer look

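The 48 results listed here stand out because the response to FST288 differed between LTKO and HFD livers by limma's test of that difference itself (adjusted p under 0.05); each value is the LTKO response minus the HFD response on the log2 scale. Where the response was called in HFD livers alone and was higher in LTKO livers, the differences were 2.03 in Mir466h, 1.74 in Resf1, 1.55 in Nipal1, 1.16 in Gm7367, 1.11 in Kank2, 1.09 in Ifi203-ps, 1.03 in Mir1983, 0.93 in Rnf125, 0.89 in Oat, 0.80 in Hmgcs1 and 0.70 in Itih3. Where it was called in HFD livers alone and was lower in LTKO livers, they were -1.75 in Gm4956, -1.30 in Slc25a30, -1.27 in Cyp4a12a, -1.20 in Pex26, -1.13 in Slc22a28, -1.12 in Il1r1, -1.02 in Snord35b, -0.84 in Slc35g1, -0.82 in Retsat, -0.78 in Dmgdh, -0.68 in Mettl7a1, -0.67 in Atrn, -0.66 in Snord110, -0.65 in Eci2 and -0.61 in Snora33. For genes called in LTKO livers alone, positive differences were 2.10 in Meiob, 1.66 in H2-Q4, 1.62 in H2-T23, 1.59 in Olfr1454, 1.55 in Msmo1, 1.23 in Wdyhv1 and 0.96 in Acaa1b, and negative ones -1.91 in Cyp3a13, -1.75 in Ifnl3, -1.42 in Arrdc3, -1.40 in Glt1d1 and -1.32 in Serpina4-ps1. Genes called in neither background alone had positive differences of 1.97 in Rasgef1b, 1.50 in Gm14327, 1.42 in Ifi204, 1.41 in Sqle, 1.34 in Mlh3, 1.20 in Snord118 and 1.14 in Fam241a, and negative ones of -1.08 in Ern1 and -0.83 in Snord35a. Csad, called in both backgrounds, had a difference of 0.90. Of these genes, H2-Q4, H2-T23 and Rasgef1b were highest among the LTKO arrays on LTKO FST288 replicate 2, the array with high macrophage markers. Without it their differences were 1.24, 1.13 and 1.43. Other called genes were also highest there, among them Nipal1, Mlh3, Itih3, Resf1, Rnf125 and Oat. Without that array their differences were 1.32, 1.13, 0.59, 1.58, 0.81 and 0.81. HFD FST288 replicates 2 and 3 had high acinar markers. After adding those as a covariate 5 genes were called, all among the 48. Over the 48 genes, the median ratio of the difference with the covariate to that without it was 0.95. The part of acinar RNA in single genes was not tested beyond that covariate and the fit without both arrays.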

How the results depend on the processing

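With all arrays, 48 genes were called, 26 with a higher and 22 with a lower response in LTKO livers. Leaving out 1 array at a time gave 11 to 266 genes, 6 to 200 higher and 4 to 66 lower. Deviations of same-numbered arrays from their group means correlated between -0.01 and 0.01 in HFD livers and at -0.07 in LTKO livers. With 2 arrays in each LTKO group the deviations mirror each other, so that -0.07 is a single value. Such correlations over all genes cannot exclude that replicate numbers pair the samples. With the replicate number as a block within each background, 28 genes were called, 15 higher and 13 lower, 23 of them among the 48. Without the intensity trend in eBayes 3 were called, 2 higher and 1 lower, and in a fit of all 41345 transcript clusters 6, 3 in each direction, 2 of them among the 48. An acinar covariate left 5 (2 higher, 3 lower), leaving out both acinar-high arrays left 1 (0 higher, 1 lower; 1469 genes had an unadjusted p under 0.05), and a macrophage covariate, chosen after seeing the data, left 23 (14 higher, 9 lower); leaving out arrays or adding a covariate also takes degrees of freedom, and the cause was not tested. An adjusted p under 0.1 gave 155 (84 higher, 71 lower), and a size of at least 1 besides the threshold left 33 (20 higher, 13 lower). Robust eBayes (58), array weights (41), quantile normalization (47, with 29 higher and 18 lower), a filter on dim genes (60 of 11897) and the mean of a gene's clusters (36) kept the count within 1.5 times. When a gene's clusters were averaged, Snora33 reversed to 0.10 (adjusted p = 0.824), Wdyhv1 and H2-Q4 shrank to 0.43 and 0.82, and no other of the 48 genes changed sign in the 21 refits. Apart from the fits that left out 1 array, Cyp3a13 was called in all 11 refits and Meiob in 10. The limits are few arrays (2 in each LTKO group), a background that joins genotype with an unstated diet, arrays with acinar or macrophage RNA, and an intensity near background for genes at or below 3.10 to 3.17, the array medians of named genes.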

Other observations

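In the fit of all transcript clusters, 4 clusters without a single gene symbol were called for the difference beside Cyp3a13 and Meiob. Cluster 17324690 was at 7.92, 7.72 and 7.72 in HFD GFP livers, 7.11, 6.82 and 6.72 in HFD FST288 livers, 6.13 and 6.31 in LTKO GFP livers and 7.56 and 7.69 in LTKO FST288 livers, a difference of 2.30 ± 0.19 (limma, adjusted p = 0.00976). Its groups did not overlap in either background and lay in opposite order. Cluster 17417223 had group means of 7.95 and 9.68 in HFD livers and of 11.56 and 11.72 in LTKO livers, a difference of -1.56 ± 0.13 (adjusted p = 0.00976). Clusters 17203559 and 17205519, both dim, differed by -1.82 ± 0.18 and 1.73 ± 0.18 (adjusted p = 0.0247 for each). Their genes were not analysed here.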
